A study of Arabidopsis thaliana with 22 samples.

Results

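Roots of Arabidopsis thaliana (Landsberg erecta) held for 1 h in a medium without Fe were compared with roots held for 1 h in a medium with Fe, on 3 Affymetrix ATH1 arrays each, with the arrays of the same replicate number taken as a pair. The comparison was restricted to probe sets with a mean intensity of 100 or more over these 6 arrays. There were 13945 such probe sets, called members here, of 22746 on the array. The series has 22 arrays from 8 groups. Those compared here are Fe-deficient and Fe-sufficient roots of 0, 1 and 6 h, 3 arrays each. Among the main fits, the 24 h arrays, 2 of each medium, added only to the spread in that of 1 h against 0 h. By the study's methods the plants of every group were of this cultivar, grown in hydroponics with Fe, given a short EDTA wash and moved into one of the media. The 0 h roots of each medium were taken right after this transfer and stand for the starting level. Only groups of Fe-deficient plants that later raised their chelate reductase activity were taken for RNA. Roots of several plants were pooled for each harvest, and fewer cells of a type and less RNA per cell cannot be told apart. The labels call the arrays biological replicates, and p-values measure the spread between these arrays alone.

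Arabidopsis takes up Fe by acidifying the rhizosphere, reducing ferric chelates with FRO2 and importing ferrous Fe through IRT1, under the control of the bHLH factor FIT and its partners of the bHLH039 type. Coumarins made by F6'H1 and S8H help to mobilise Fe, OPT3 loads it into the phloem, and ferritins and vacuolar transporters of the VIT1-like (VTL) family store the surplus. Transcripts of the uptake genes rise and those of the storage genes fall when Fe runs short. The question put to the 1 h arrays was what differed between the media this soon after the transfer, and whether the Fe-deficient or the Fe-sufficient roots had moved away from their 0 h level.

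The arrays had a median intensity between 181.1 and 195.0 at 1 h, and 60.1% to 61.2% of the probe sets were at 100 or more on each. Of 5 leaf photosynthesis genes with a named probe set none reached a mean of 100, RCA being the brightest with 71.2. The root hair expansins EXPA7 and EXPA18 had means of 233 and 195. The replicate 1 harvests stood apart from the others: 37 members were over 8-fold higher (29) or lower (8) on all 4 replicate 1 arrays of 0 and 1 h than on any of the 8 arrays of replicates 2 and 3, while no member separated replicate 2 or replicate 3 in this way. AT5G45500, for example, had 3239 to 3444 in replicate 1 and 1.0 to 7.6 in the others, and AOP3, a glucosinolate gene, had 10 to 31.4 against 439.5 to 690.0 in the others. The fit compares the media within a pair, and the main values are also given without the replicate 1 pair. Whether the replicate 1 plants were of the same seed stock or accession as the others was not tested, which bears on every value that includes this pair.

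Of the 13945 members, 76 were higher and 49 were lower in Fe-deficient than in Fe-sufficient roots at 1 h by more than 1.5-fold with an unadjusted p under 0.05 in a paired limma fit, the study's criterion, used throughout. Over all probe sets, 1.69% were higher and 1.17% were lower by this rule, and among members both directions together came to 0.896%. An unadjusted p under 0.05 was reached by 410 members (2.94%). None had a Benjamini-Hochberg adjusted p under 0.05 over all probe sets, the smallest being 0.514, so the genes below are described as differences of these 3 pairs and none withstood the adjustment. The difference was within 1.5-fold for 97.9% of the members, with a median standard error of 0.16 on the log2 scale, against 0.58 for probe sets under 100. The same rule called 45 members higher and 24 lower at 0 h, when the roots had just been transferred, where it called 1.8% and 0.892% of all probe sets. At 6 h it called 94 members higher and 51 lower, and 1.47% and 1.74% of all probe sets. Whether these numbers differ between times was not tested.

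The probe sets nearest the limit were 257478_at and 266598_at just above it, with means of 100 and 100.02, and AT3G18670 and AT1G63550 just below it, with 99.97 and 99.98. Their differences at 1 h were -0.29, 0.01, 0.32 and 0.13 on the log2 scale.

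The pairs differed from each other in what they showed. The correlation across members of the pair differences was 0.24 between pairs 2 and 3, -0.05 between pairs 1 and 2 and -0.18 between pairs 1 and 3, and genes are not independent replicates. The sign was the same in all 3 pairs for 25% of the members, against 24.7% at 0 h and 25.9% at 6 h. All 3 pairs exceeded 1.5-fold in the same direction for 22 members that were higher and 1 that was lower at 1 h, where the shares over all probe sets were 1.12% and 0.761%. At 0 h this held for 2 higher and 6 lower members (1.25% and 0.717% of all probe sets), and at 6 h for 27 higher and 7 lower (0.827% and 0.985%). Of the 23 members at 1 h, 18 were among those called.

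**Figure D1:**
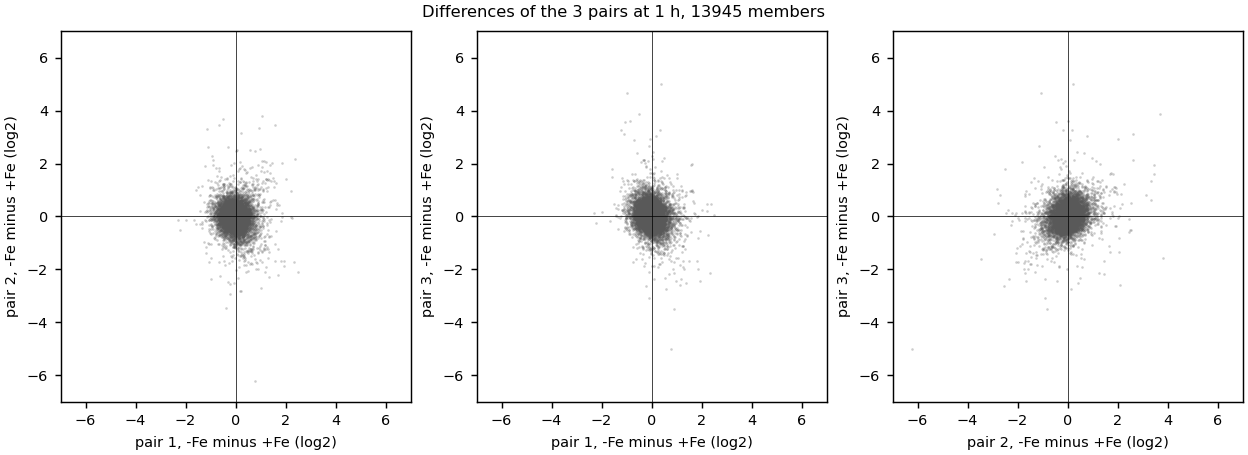
Differences between Fe-deficient and Fe-sufficient roots at 1 h (log2 of intensity plus 1) for every member, with 1 pair of arrays plotted against another in each panel. The cloud leans upward only for pairs 2 and 3 (r = 0.24), and for pairs 1 and 3 it leans slightly downward (r = -0.18).

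AT2G15780 had the smallest p among the members that were higher. Its intensity was 1062, 880 and 294 in Fe-deficient roots, against 411, 230 and 153 in Fe-sufficient roots, in replicates 1 to 3. The Fe-deficient array was the brighter of each pair, although the groups overlapped because replicate 3 was dim in both media. The difference was 1.41 ± 0.21 (SE) on the log2 scale, 2.66-fold (unadjusted p = 0.000164, adjusted p = 0.514). At 0 h the roots had 99.8, 131 and 220 in the Fe-deficient medium and 154, 129 and 229 in the Fe-sufficient one. Fe-deficient roots thus changed by 2.19 over 1 h (unadjusted p = 0.000967) and Fe-sufficient roots by 0.55 (unadjusted p = 0.322). It was also 1.80 higher in Fe-deficient roots at 6 h (adjusted p = 0.243), and without the replicate 1 pair the 1 h difference was 1.44.

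XTH32, a xyloglucan endotransglucosylase/hydrolase that remodels wall xyloglucan, had 828, 470 and 167 in Fe-deficient roots, against 284, 219 and 85.2 in Fe-sufficient roots (2.30-fold, log2 1.20 ± 0.22, adjusted p = 0.925). Fe-deficient roots had changed by 1.66 from their 0 h level and Fe-sufficient roots by 0.32, so the difference lay on the Fe-deficient side, and it was 1.03 without the replicate 1 pair. EXLA1, an expansin-like protein, had 1052, 854 and 333 in Fe-deficient roots, against 609, 428 and 263 in Fe-sufficient roots (1.63-fold, log2 0.71 ± 0.17, adjusted p = 0.999). Here Fe-deficient roots stayed near their start, with a change of 0.14, while Fe-sufficient roots changed by -1.07 (unadjusted p = 0.0109). Without the replicate 1 pair the difference was 0.67, and without the replicate 2 pair it was 0.56 and no longer called. In both genes replicate 3 was the dimmest in each medium, and the groups overlapped.

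AT5G52050, a MATE-type efflux carrier (DTX50), had 1155, 620 and 92.9 in Fe-deficient roots, against 450, 197 and 52.0 in Fe-sufficient roots (2.42-fold, log2 1.28 ± 0.30). Both media contributed, with a change of 0.91 in Fe-deficient roots and of -0.65 in Fe-sufficient roots, neither past an unadjusted p of 0.05. AT1G05340 had 2383, 1387 and 716 in Fe-deficient roots, against 1479, 589 and 378 in Fe-sufficient roots. That difference of 0.95 was in large part there at 0 h, when it was 0.69 (unadjusted p = 0.0104). The other named genes among the 12 with the smallest p were AT1G56660, AT5G46730 and AT4G27340, with log2 differences of 1.01, 1.22 and 0.62. Over 1 h Fe-deficient roots had changed by 0.25, 0.44 and 0.21 in these, and Fe-sufficient roots by -1.05, -0.46 and -0.38. Each of these genes reached the limit for members only through the Fe-deficient arrays, with means of 144, 144 and 146. The means in Fe-sufficient roots were 69.8, 68.6 and 92.8, so these calls are not independent of the limit. The probe sets 246230_at, 266901_at, 259426_at and 265547_at, which have no gene name here, were higher by 0.89, 1.21, 0.91 and 1.19.

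**Figure D2:**
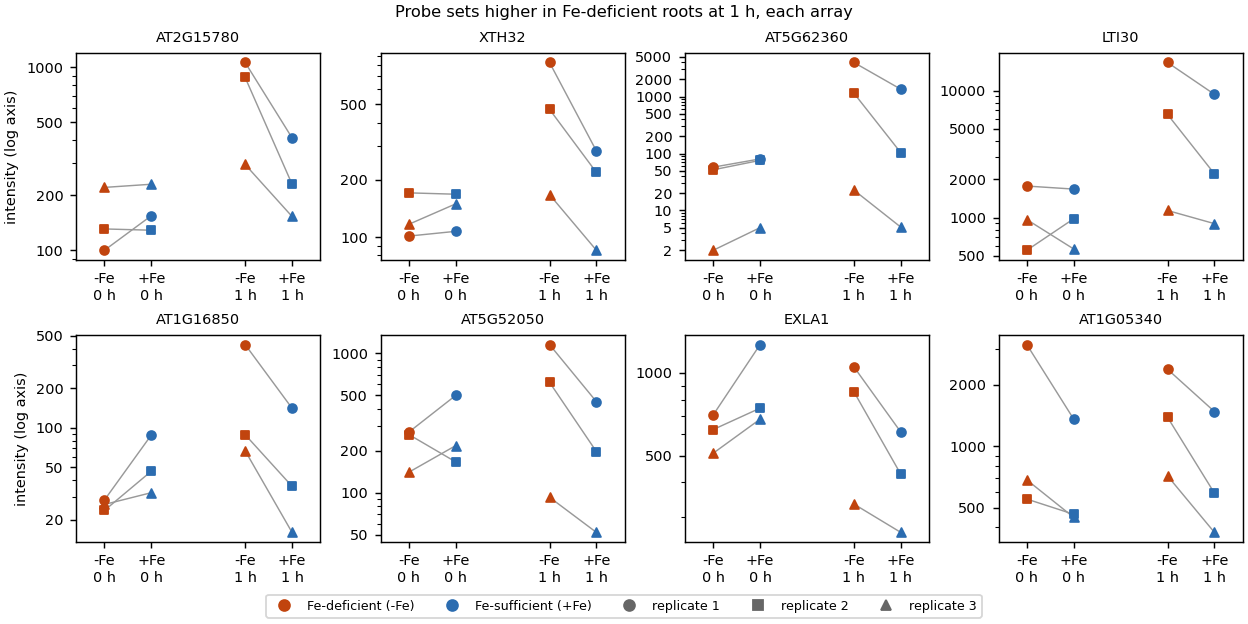
Intensity on each array (log axis) of 8 members that were higher in Fe-deficient (-Fe) than in Fe-sufficient (+Fe) roots at 1 h, with the arrays of 0 h to the left and lines joining the arrays of a pair. Every 1 h line slopes down from -Fe to +Fe, while for XTH32, AT5G62360 and LTI30 the 0 h values lie below most of the 1 h values and for AT1G05340 the 0 h lines already slope down.

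A further 4 called members were chosen after their values were seen. AT5G62360 had 3972, 1148 and 22.8 in Fe-deficient roots, against 1347, 103 and 5.1 in Fe-sufficient roots at 1 h. Its 0 h levels were 57.6, 51.8 and 2.0 in Fe-deficient roots and 80.5, 75.9 and 5.0 in Fe-sufficient roots, so that replicates 1 and 2 were brighter at 1 h in both media and replicate 3 was dim throughout. The 1 h difference was 2.33 ± 0.60, and the change over 1 h was 4.51 in Fe-deficient roots (unadjusted p = 0.0352) and 1.5 in Fe-sufficient roots (unadjusted p = 0.453). LTI30, a dehydrin that responds to cold and water deficit, had 16630, 6488 and 1139 in Fe-deficient roots, against 9337, 2211 and 897 in Fe-sufficient roots. Over 1 h it had changed by 2.34 in Fe-deficient and by 1.44 in Fe-sufficient roots, and the difference was 0.91 ± 0.36, or 0.95 without the replicate 1 pair, where it was no longer called (unadjusted p = 0.091). COR47, another dehydrin, had 8149, 4470 and 2277 in Fe-deficient roots, against 6038, 1807 and 1904 in Fe-sufficient roots, a difference of 0.67 ± 0.23, with changes over 1 h of 1.302 in Fe-deficient and 0.40 in Fe-sufficient roots. Without the replicate 2 pair neither dehydrin was called, with differences of 0.59 for LTI30 and 0.35 for COR47. AT1G16850 had 430, 88.7 and 66.9 in Fe-deficient roots, against 141, 35.9 and 16 in Fe-sufficient roots, with a change over 1 h of 2.36 in Fe-deficient roots (unadjusted p = 0.0128) and of -0.22 in Fe-sufficient roots. AT1G16850 reached the limit for members only through the Fe-deficient arrays, mainly that of replicate 1, with means of 195 in Fe-deficient and 64.3 in Fe-sufficient roots. For all 4 of these genes the adjusted p was 0.999.

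This order of the replicates was common among the members that were higher. Of the 46 whose difference lay on the Fe-deficient side, 24 (52.2%) were brightest in replicate 1 and dimmest in replicate 3 in both media at 1 h, as were 9.08% of all members. Over the 76, Fe-deficient roots changed from their own 0 h array by medians of 1.15, 0.98 and 0.28 in replicates 1, 2 and 3, and Fe-sufficient roots by 0.09, -0.02 and -0.40. The median pair differences were 0.76, 1.06 and 0.76, and 70 of the 76 had the same sign in all pairs, values that the choice of the members by this contrast partly fixes.

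For each member the 1 h difference was divided into the 0 h difference and the changes of each medium over 1 h, and a side was named where its change gave 50% or more of the 1 h difference. Of the 76 members that were higher, 46 (60.5%) lay on the Fe-deficient side, 18 (23.7%) on the Fe-sufficient side and 6 on both, 2 were present at 0 h and 4 were mixed. Of the 49 that were lower, 26 (53.1%) lay on the Fe-sufficient side, 9 (18.4%) on the Fe-deficient side and 7 on both, 3 were present at 0 h and 4 were mixed. Among all members with a positive difference, 26.8% lay on the Fe-deficient side and 41.7% on the Fe-sufficient side, and among those with a negative one 39.1% and 27.1%. The side was read from the same 1 h arrays as the call and carries no test. By the criterion applied to 1 h against 0 h, 285 members changed in Fe-deficient roots and 265 in Fe-sufficient roots, none with a limma adjusted p under 0.05 (smallest 0.106 and 0.0895), while 540 and 566 had an unadjusted p under 0.05. That fit has no block, and with a replicate block over the arrays of 0, 1 and 6 h the counts were 405 in Fe-deficient and 381 in Fe-sufficient roots. Among all probe sets 1.53% rose and 1.92% fell in Fe-deficient roots by that criterion, and 1.25% rose and 1.71% fell in Fe-sufficient roots.

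**Figure D3:**
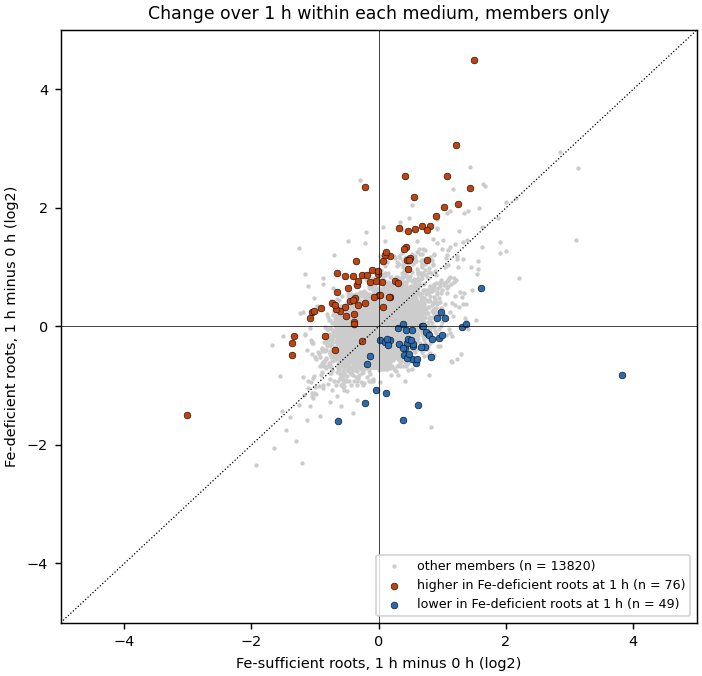
Change over 1 h in Fe-deficient roots (vertical axis) against the change in Fe-sufficient roots (horizontal axis) for all members, both as log2 of intensity plus 1 at 1 h minus 0 h. The 76 members that were higher in Fe-deficient roots at 1 h lie mainly above the dotted line of equal change, 46 of them on the Fe-deficient side, and the 49 that were lower lie mainly below it, 26 of them on the Fe-sufficient side.

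Among the 49 members that were lower, Fe-deficient roots changed from their own 0 h array by medians of -0.28, -0.36 and -0.33 in replicates 1, 2 and 3, and Fe-sufficient roots by 0.05, 0.74 and 0.89. The pair difference was opposite in sign in 14 of the 49 in replicate 1 and in none in replicates 2 and 3. Of the 26 on the Fe-sufficient side, 24 (92.3%) were dimmest in replicate 1 among the Fe-sufficient arrays of 1 h, as were 41.3% of all members.

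AT5G44820 was called by both of its probe sets, which share the gene and are not independent. Probe set 254521_at had 239, 179 and 220 in Fe-deficient roots, against 288, 603 and 744 in Fe-sufficient roots, with no overlap (log2 -1.26 ± 0.35, adjusted p = 0.999). Probe set 249021_at had 186, 129 and 116 in Fe-deficient roots, against 145, 381 and 289 in Fe-sufficient roots, a difference of -0.83 ± 0.35. In both the Fe-sufficient arrays of replicates 2 and 3 were the bright ones. Over 1 h Fe-deficient roots had changed by -0.51 and -0.09, and Fe-sufficient roots by 0.82 and 0.74 (unadjusted p = 0.0239 and 0.0407). Without the replicate 1 pair the differences were -1.75 and -1.43.

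The 5 probe sets with the smallest p among those that were lower have no gene name here. They were 254248_at, 254817_at, 262976_at, 261851_at and 267565_at, with differences of -0.67, -0.93, -0.65, -0.70 and -0.64. The probe set 254817_at was also lower at 6 h, by -0.95 (adjusted p = 0.808). AT4G28020 had narrow groups, with 141, 148 and 147 in Fe-deficient roots, against 240, 237 and 251 in Fe-sufficient roots (log2 -0.74 ± 0.17, adjusted p = 0.999), with changes over 1 h of -0.29 in Fe-deficient and 0.31 in Fe-sufficient roots. AT1G80640, AT3G18930 and AT1G63530 were lower by -0.70, -0.79 and -0.85, with changes over 1 h of -0.28, -0.19 and -0.56 in Fe-deficient roots and of 0.44, 0.95 and 0.61 in Fe-sufficient roots. AT2G06040 was lower by -0.63. AT2G06040 and AT4G23610 reached the limit for members only through the Fe-sufficient arrays, with means of 142 and 131. Their means in Fe-deficient roots were 92.1 and 86.9. AT4G23610 lay on the Fe-deficient side. It had 46.2, 92.0 and 123 in Fe-deficient roots at 1 h, against 154, 195 and 260 in the same medium at 0 h, a change of -1.29 (unadjusted p = 0.0067), and 83.3, 167 and 144 in Fe-sufficient roots at 1 h. Of the 24 probe sets named so far by their p, 254248_at and AT4G23610 were no longer called without the replicate 1 pair, with differences of -0.55 and -0.54, while 4 were lost without the replicate 2 pair, 8 without the replicate 3 pair and 10 without the block.

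The contrast between replicates was plain in 5 further called members, chosen after their values were seen. The cytochrome P450 gene CYP71B21 had 2.4, 3.9 and 15.9 in Fe-deficient roots, against 1.0, 365 and 536 in Fe-sufficient roots. It was at 0.8 to 34.9 on all arrays of 0 h. CYP71B21 reached the limit for members only through the Fe-sufficient arrays of replicates 2 and 3. Its call and the size of its difference therefore rest on the medium in which it was bright, against dim values in the other. CYP71B22, another P450 gene, had 783, 1349 and 1056 in Fe-deficient roots, against 626, 3801 and 3709 in Fe-sufficient roots. APS3, an ATP sulfurylase of sulfate assimilation, had 1946, 2661 and 1762 in Fe-deficient roots, against 1992, 5593 and 4670 in Fe-sufficient roots. In each of these genes the replicate 1 pair showed no such difference, the dim CYP71B21 being 0.77 higher there in Fe-deficient roots, while the Fe-sufficient arrays of replicates 2 and 3 were brighter than any Fe-deficient array. AT5G18470 had 2582, 2327 and 2339 in Fe-deficient roots, against 2619, 4739 and 4481 in Fe-sufficient roots. AT2G24600 had 1336, 1056 and 633 in Fe-deficient roots, against 1077, 2936 and 2187 in Fe-sufficient roots. The log2 differences over the 3 pairs were -3.48 for CYP71B21, -0.99 for CYP71B22, -0.84 for APS3, -0.66 for AT5G18470 and -0.98 for AT2G24600, each with an adjusted p of 0.999. Without the replicate 1 pair they were -5.61, -1.65, -1.24, -0.98 and -1.63. None of these 5, and neither probe set of AT5G44820, was called without the replicate 2 pair or without the replicate 3 pair.

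**Figure D4:**
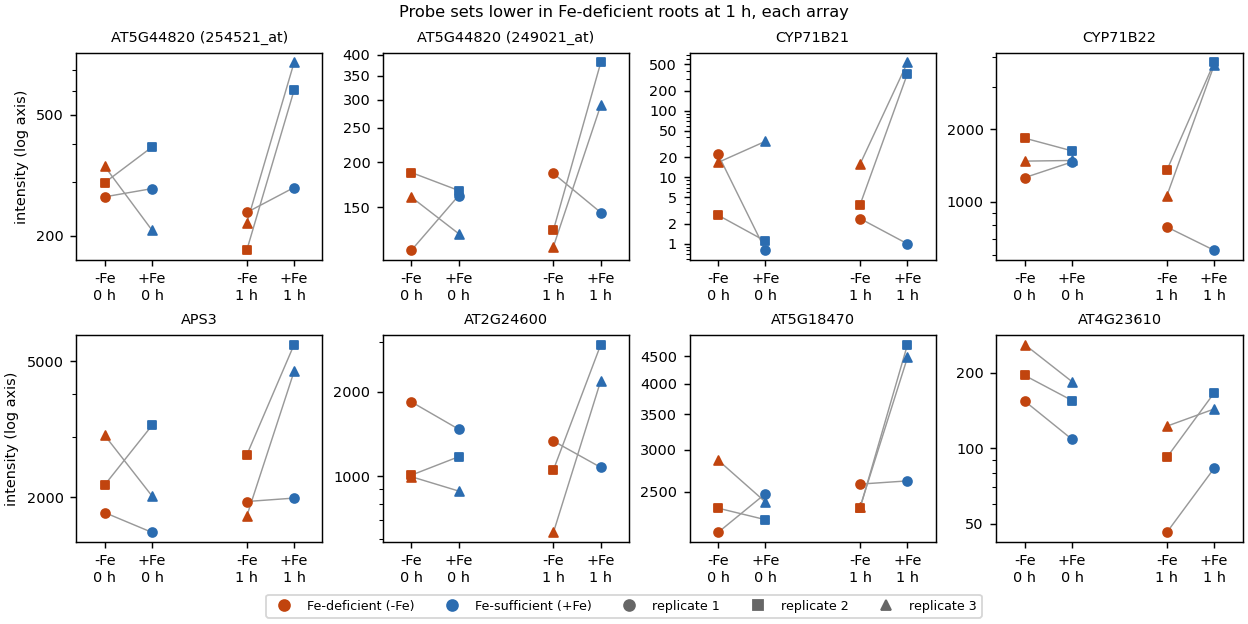
Intensity on each array (log axis) of 8 probe sets that were lower in Fe-deficient (-Fe) than in Fe-sufficient (+Fe) roots at 1 h, drawn as for those that were higher. In the first 7 panels the +Fe arrays of replicates 2 and 3 stand above the others at 1 h and replicate 1 does not follow, while AT4G23610 is lower at 1 h than at 0 h in Fe-deficient roots.

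Leaving out the replicate 1 pair gave 204 higher and 242 lower members, 446 in all, against 2.78% and 2.27% of all probe sets, with a smallest adjusted p among members of 0.169. Of the 125 members called with all pairs, 85 were among these, while 51 were still called without the replicate 2 pair and 58 without the replicate 3 pair. With replicates 2 and 3 alone the Fe-sufficient side held 132 (64.7%) of the 204 higher members and 169 (69.8%) of the 242 lower ones, and the Fe-deficient side held 38 (18.6%) and 32 (13.2%). The shares over all members were not computed for these 2 replicates. With all pairs the Fe-sufficient side held 41.7% of all members with a positive difference and 27.1% of those with a negative one. The median change over 1 h was 0.21 in Fe-deficient and -0.65 in Fe-sufficient roots for the higher members, and -0.20 in Fe-deficient and 0.69 in Fe-sufficient roots for the lower ones. The 76 higher members called with all 3 pairs, 46 of them on the Fe-deficient side, are a different set, of which 44 were among the 204. The sides of the 76 were not computed with replicates 2 and 3 alone. Without the replicate 1 arrays of 0 h only, 50 of the 76 lay on the Fe-deficient side. Among genes called without the replicate 1 pair and chosen after their values were seen, WRKY6, a transcription factor, differed by -1.07 with pair differences of -1.19 and -0.96 in replicates 2 and 3 and 0.53 in replicate 1. CML42, a calmodulin-like Ca sensor, differed by -0.87, with 0.33 in replicate 1, and AT1G33600 by -1.87, with 0.84 in replicate 1.

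None of the listed Fe genes that were members was called at 1 h with all pairs. Of 22 gene lists 13 had a member. Some of the others, such as those of jasmonate and ethylene, had no probe set with a name here, so their genes were not examined. The 13 lists held 54 members in all, and 0 of the 54 were called, the smallest unadjusted p being 0.0795. With 0.896% of all members called, a count of 0 among so few says nothing particular about these genes. The same held for 0 of 51 members among the genes the study tabulated as changed by Fe deficiency, with a smallest unadjusted p of 0.0808. That table was made from these samples and is not independent evidence of direction. Of its 39 members listed as raised, 31 had a positive difference at 1 h, as had 7042 of all 13945 members. The median of the 39 was 0.21, against 0.002 over all members, and was -0.07 at 0 h and 0.965 at 6 h. Their pair medians at 1 h were -0.0003, 0.223 and 0.275 in replicates 1, 2 and 3, so replicate 1 showed no such lean. The median change of the 39 over 1 h was -0.105 in Fe-deficient roots and -0.28 in Fe-sufficient roots. Of its 12 members listed as lowered, 3 had a positive difference, with a median of -0.17 at 1 h and -0.68 at 6 h. The pair medians of the 12 at 1 h were 0.127, -0.165 and -0.116. 

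Of 17 listed Fe acquisition genes, 9 had a probe set that was named here. FRO2 was not among these 9, and listed genes without a named probe set were not examined. Of the 9, 8 were members, 5 of them with a positive difference, and the median of the 8 was 0.205. IRT1, the main root Fe transporter, had 621, 2337 and 1111 in Fe-deficient roots, against 324, 1345 and 1016 in Fe-sufficient roots at 1 h. All 3 pairs leaned the same way but the groups overlapped widely, and the difference of 0.62 ± 0.54 was not past the test (unadjusted p = 0.287). At 0 h IRT1 had 218, 3910 and 430 in Fe-deficient roots and 718, 3008 and 1284 in Fe-sufficient roots, a difference of -0.97 ± 0.54, and Fe-sufficient roots changed by -0.88 over 1 h where Fe-deficient roots changed by 0.71. S8H, the scopoletin 8-hydroxylase, had 806, 1406 and 427 in Fe-deficient roots, against 381, 684 and 259 in Fe-sufficient roots, above 1.5-fold in every pair. Its difference of 0.95 ± 0.75 (unadjusted p = 0.246) came from a fit that pools the spread of the pairs over 0, 1 and 6 h, and over 1 h Fe-deficient roots had changed by 0.89 and Fe-sufficient roots by -1.16. MTPA2, which sequesters metals in the vacuole, differed by 0.36, and COPT2, a Cu transporter chosen after its values were seen, by 0.90, with 272, 257 and 184 in Fe-deficient roots, against 173, 108 and 104 in Fe-sufficient roots and no overlap (unadjusted p = 0.101). IREG2, F6'H1 and BGLU42 differed by -0.09, -0.03 and -0.30. F6'H1, the enzyme upstream of S8H, was the brightest of the list, with a mean of 14562.

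Of 17 named probe sets of regulators, with BTSL1 present more than once, 13 were members. Of these, 10 had a positive difference, and the median was 0.06. The brightest, BHLH115, EIN3, ILR3, BHLH104, BTSL1 and BTS, differed by 0.00, 0.12, -0.06, -0.01, 0.24 and 0.06. The value for BTSL1 is that of a single probe set. Without the replicate 1 pair this probe set differed by 0.42 and another of BTSL1 by -0.37, neither of them called. BHLH039, chosen after its values were seen, had 229, 518 and 633 in Fe-deficient roots, against 139, 533 and 253 in Fe-sufficient roots, a difference of 0.66 ± 0.35 (unadjusted p = 0.0932), and was 2.33 higher at 6 h. The 6 distribution genes had a median of 0.20. OPT3 had 115, 152 and 554 in Fe-deficient roots, against 149, 198 and 126 in Fe-sufficient roots, so that its difference of 0.46 ± 0.50 came from replicate 3 alone. ORG1, ZIF1, FRO3, NRAMP4 and IREG3 differed by 0.26, 0.30, 0.14, 0.12 and -0.08.

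The 5 storage genes had a median of -0.325, with 2 of them positive, and the median was 0.08 without the replicate 2 pair and 0.06 without the replicate 3 pair. FER1, a ferritin, had 3161, 2983 and 1980 in Fe-deficient roots, against 2672, 2581 and 5329 in Fe-sufficient roots, with the bright Fe-sufficient array of replicate 3 setting the difference of -0.33 ± 0.38. FER3 and FER4 differed by 0.25 and 0.21. VTL1, a vacuolar Fe transporter, had 1451, 438 and 393 in Fe-deficient roots, against 409, 1425 and 1248 in Fe-sufficient roots. Its pair differences were 1.83, -1.70 and -1.67, so that replicate 1 ran opposite to the others, and without that pair the difference was -1.68 (unadjusted p = 0.0115, adjusted p = 0.599) against -0.51 with it. VTL5 had pair differences of 0.83, -0.85 and -1.28, and was likewise called without the replicate 1 pair, at -1.07. Leaving out a pair gave other calls among listed genes too. Without the replicate 1 pair ZIP3 and GH3.3 were called, at -0.65 and -1.43. Without the replicate 2 pair BHLH039 was called, at 1.02. Without the replicate 3 pair CML39 was called at 1.38 and IMA1, tabulated by the study as raised, at -0.76. IMA1 differed by 1.57 without the replicate 1 pair and was not called there. At 6 h all 5 storage genes were called lower and 5 of the 8 acquisition genes were called, by the same rule. Among these 5 acquisition genes were IRT1, MTPA2 and S8H, higher by 2.25, 1.69 and 2.32. Of all members 1.04% were called at 6 h in either direction, none with an adjusted p under 0.05.

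**Figure D5:**
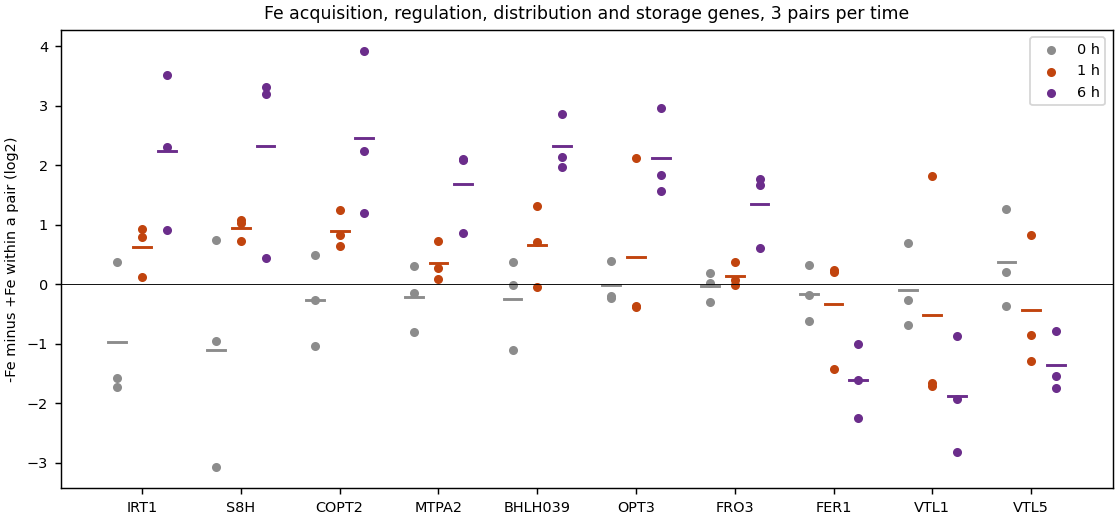
Difference between Fe-deficient (-Fe) and Fe-sufficient (+Fe) roots within each of 3 pairs (points) and their mean (bar), on the log2 scale, for 10 genes of Fe acquisition, regulation, distribution and storage at 0, 1 and 6 h. The 1 h points of IRT1, S8H, COPT2 and MTPA2 lie above 0 in every pair, those of OPT3, FER1, VTL1 and VTL5 lie on both sides of 0, and at 6 h the points of each gene lie on one side.

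Below the limit of 100, 3 of 16 probe sets from the tabulated genes met the criterion at 1 h, all higher in Fe-deficient roots, where 526 of all 8801 probe sets under 100 (5.98%) met it, 308 of them higher. MYB72, a root MYB factor of the Fe response, had 26.4, 129 and 92.2 in Fe-deficient roots, against 6.7, 35.7 and 2.8 in Fe-sufficient roots, a difference of 2.76 ± 0.63 (adjusted p = 0.999). Fe-deficient roots had changed by 0.20 over 1 h and Fe-sufficient roots by -2.66. IRT2 and CGLD27 differed by 1.65 and 1.43.

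Of the 125 members called at 1 h, 8 were also called at 6 h with the same sign, 6.4% of the 125 and 5.52% of the 145 called at 6 h, where 1.04% of all members were called in either direction, and 2 at 0 h, 1.6% of the 125 and 2.9% of the 69 called at 0 h, where 0.495% of all members were called. With the opposite sign, 2 of the higher and 1 of the lower members were called at 6 h. The fit uses 1 residual spread per probe set for all times, so calls at different times are not independent. AT2G15780 and AT5G52050 were among those higher at both 1 and 6 h. The median 6 h difference was 0.09 for the members that were higher at 1 h and -0.02 for those that were lower. The 1 h difference was larger or smaller than the 0 h difference by the criterion in 299 members (152 higher and 147 lower, against 1.83% and 2.21% of all probe sets) and than the 6 h difference in 219 (113 and 106, against 2.1% and 1.42%), with none at an adjusted p under 0.05, and 515 and 365 at an unadjusted p under 0.05.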

How the data were processed

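The values deposited by the authors are intensities on a linear scale, 1 for each probe set on an array. The trimmed mean was 500.04 to 500.05 on every array, so the deposited intensities had been scaled to a common level. According to the methods, arrays were normalised with the AffylmGUI package by fitting a model to the probes, and the program behind the deposited values is not given in the sources used here. The 64 control probe sets were left out. Deposited intensities were transformed to log2 of intensity plus 1. Adding 1 shrinks the log2 changes of probe sets near 0. Changes of dim probe sets are nonetheless imprecise on this scale and can be large. Their median standard error was 0.58 under 100, against 0.16 for members. In R 4.3.3 with limma 3.58.1, 18 arrays of 0, 1 and 6 h were fitted with each harvest pair as a block, and all 22 arrays as 8 groups for 1 h against 0 h, with Benjamini-Hochberg adjustment over 22746 probe sets. The fits were tested on simulated data. The labels give replicate numbers and the methods independent experiments. Deviations from group means correlated at 0.12 to 0.45 between same-numbered arrays of both media at 0, 1 and 6 h, and the numbers were taken as pairs. At 24 h they correlated at -0.41 and that time was not compared.

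Named genes were the 12 members with the smallest p in each direction, up to 6 members of each Fe list, up to 3 called members of other lists, and the neighbours of the limit. Others are marked as chosen later. The members and lists were chosen with earlier results of these data known. The array annotation named 1 gene for 13513 probe sets and another 40 were named from the study's tables, 501 had several and 8692 none. Alternatives were no block, other sets of arrays, pseudocounts, scaling, filters and leaving out each replicate. Precision is limited by the number of arrays. No sequences were used here.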

Additional observations from a re-analysis of the deposited data

Results flagged for a closer look

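Among the named probe sets, the pairs of 1 h and of another time all ran in opposite directions in 13 comparisons. At 0 h against 1 h these were 246230_at (1 h difference 0.89, 0 h difference -0.34), AT1G56660 (1.01 and -0.29), EXLA1 (0.71 and -0.51), 262976_at (-0.65 and 0.28), AT4G23610 (-0.64 and 0.44), AT1G63530 (-0.85 and 0.32), F6'H1 (-0.02975 and 0.16), FER3 (0.25 and -0.34), AT5G62360 (2.33 and -0.67), AT1G16850 (1.63 and -0.95) and AT2G25450 (-1.17 and 0.79). At 6 h against 1 h they were AT1G80640 (-0.70 at 1 h and 0.10 at 6 h) and FER3 (0.25 at 1 h and -0.65 at 6 h). In the limma fit the difference between the times had an adjusted p of 0.921 for each of the 0 h comparisons apart from F6'H1, which had 0.935, and of 1.0 for both of the 6 h ones. With groups of 3 arrays no single array was tested as an outlier. No explanation was tested for these probe sets.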

How the results depend on the processing

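The numbers below stand against 125 members called at 1 h (76 higher, 49 lower), 410 at an unadjusted p under 0.05 and 651 of all probe sets called. Without the replicate block 53 members were called, 23 higher and 30 lower, with 159 at an unadjusted p under 0.05, 425 of all probe sets, and 145 and 99 members for the 1 h difference against those of 0 and 6 h, where the paired fit gave 299 and 219. Of the 53, 46 were among the 125. The 6 arrays of 1 h alone gave 25 lower members and 206 at an unadjusted p under 0.05, and that number was 639 with an intensity trend and 646 with a filter on low values. A limit of 200 gave 75 members, 42 of them higher, and a limit of 50 gave 191, 77 of them lower. A pseudocount of 32 called 230 of all probe sets, and 2 list members where the main setting called 0. Leaving out 1 replicate gave 110 to 446 called members, 66 to 204 higher and 44 to 242 lower, 235 to 782 at an unadjusted p under 0.05, 686 to 1149 of all probe sets, and 1 to 4 list members. It gave 171 to 517 members for 1 h against 0 h in Fe-deficient roots, where all replicates gave 285, and 213 to 411 in Fe-sufficient roots, where they gave 265. The highest numbers came without replicate 1, except that for Fe-deficient roots, which came without replicate 3. Without replicate 1 at 0 and 1 h, a setting added after seeing the data, 169 of 242 lower members lay on the Fe-sufficient side, against 26 of 49 with all replicates. These are different sets of members, with 41 of the 49 among the 242. No member reached an adjusted p under 0.05 at 1 h under the settings tried. Among the genes rerun under every setting, the sign of the 1 h difference turned in 9 not called with all replicates when 1 replicate was left out. The ranges were -0.2428 to 0.1594 for IREG2, -0.08134 to 0.05654 for BHLH115, -0.05433 to 0.04176 for BHLH104, -0.0113 to 0.3355 for NRAMP4, -0.03083 to 0.5303 for ZIF1, -0.3681 to 0.8825 for OPT3, -0.1996 to 0.0553 for IREG3, -0.6095 to 0.2255 for FER1 and -1.683 to 0.08026 for VTL1, which turned without replicate 2 and also without replicate 3 (0.06235). IMA1 was not among the genes rerun in this way, and differed by 1.565 without replicate 1 and by -0.7591 without replicate 3. The cause was not tested. Signals near background and 3 arrays a group limit what could be detected.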

Other observations

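The 37 members that set replicate 1 apart at 0 and 1 h were placed on every array by the midpoint of their levels, a placement chosen after the data were seen. At 6 h the replicate 1 arrays of both media held the replicate 1 level for 37 of 37 and the arrays of replicates 2 and 3 for 0 of 37. At 24 h Fe-deficient replicate 1 and Fe-sufficient replicate 2 held it for 37 of 37, and Fe-deficient replicate 2 and Fe-sufficient replicate 1 for 0 of 37. The 24 h replicate numbers of the media therefore do not match by this measure, and 24 h was not compared here. Of the 37, 4 were called at 1 h, AT2G25450 among them with 2307, 3.1 and 2.2 in Fe-deficient roots and 2466, 9.2 and 12.8 in Fe-sufficient roots, so that its call rests on values near 0 in replicates 2 and 3.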
